A study of Mus musculus with 2 samples.

Results

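The Vegf and angiopoietin genes described here are 10 of the 69691 gene features in each library: the ligands Vegfa, Vegfb and Vegfc, the receptors Flt1, Kdr and Flt4, the co-receptor Nrp1, the angiopoietins Angpt1 and Angpt2, and their receptor Tek. They were listed by name for their roles and not by a rule on measured values, though earlier results of these data were known. All 10 were found through their Ensembl identifiers. The samples were the kidneys of 2 newborn mice of strain B6NCrl on postnatal day 0, each library holding both kidneys of 1 pup and made as total RNA-seq, with spike-ins, from 10 ng of RNA over 200 nt in length. The pups had the same mother and form 1 group, for which the labels name no treatment or altered gene, so nothing here compares conditions. The SD given is the spread between littermates (n = 2). It does not cover errors shared by both libraries, such as those of model lengths. The labels carry 1 donor identifier for both pups and state that sex was not collected. The libraries held 41584961 and 48823952 expected counts, the estimated number of reads given to genes, in pups 1 and 2. Levels are deposited TPM, a value per transcript length, scaled to the same total in each library.

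Vegf ligands bind receptor tyrosine kinases on endothelial cells. Kdr (Vegfr2) carries most of the growth and permeability signal of Vegfa, Flt1 (Vegfr1) binds Vegfa and Vegfb tightly and also exists as a secreted decoy, and Flt4 (Vegfr3) binds Vegfc and is known for its role in lymphatic vessels. Angpt1 activates the receptor Tek (Tie2) and stabilises vessels, while Angpt2 can oppose it. In the kidney, podocytes are a known source of Vegfa for the glomerular capillaries, which lie next to them. In whole tissue, fewer cells of a type and less RNA per cell cannot be told apart.

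Splicing changes what several of these genes encode, so the stretches that separate their forms are shown before their values. For Vegfa, the forms differ in 2 exons that encode the part of the protein that binds heparan sulfate. The form known as Vegf120 holds neither, Vegf164 holds exon 7 alone, and Vegf188 holds both. The sequences are those of the GENCODE M21 transcripts, 5′ to 3′, and positions are GRCm38 (mm10) on the minus strand, where the capitals of exon 6 lie at chr17:46022277-46022348, those of exon 7 at chr17:46020991-46021122 and those of the Vegf120 end at chr17:46018858-46018879. Capitals mark exon 6, exon 7 and, in Vegf120, the last coding bases with the stop codon, and lower case marks the neighbouring exon.
Vegfa exon 6 with the end of the exon before: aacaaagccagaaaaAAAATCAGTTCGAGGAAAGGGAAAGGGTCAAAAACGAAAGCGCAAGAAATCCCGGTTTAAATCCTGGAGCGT
Vegfa exon 7 with the start of the last exon: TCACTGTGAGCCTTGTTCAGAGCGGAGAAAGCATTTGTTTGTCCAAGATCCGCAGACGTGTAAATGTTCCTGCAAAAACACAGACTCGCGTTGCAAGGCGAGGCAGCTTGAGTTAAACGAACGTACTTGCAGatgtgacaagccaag
Vegfa end of Vegf120: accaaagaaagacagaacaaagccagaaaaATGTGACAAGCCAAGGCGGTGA
Exons 6 and 7 are 72 and 132 nt long, both multiples of 3, so the reading frame is kept with or without them.

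For Flt1, the soluble form runs on past the end of exon 13 of the membrane form and stops there, before the exons for the transmembrane and kinase parts. Both share the 30 bases in lower case. The capitals of the soluble form (chr5:147639130-147639224, minus strand) are the 95 bases up to and including its stop codon, and those of the membrane form (chr5:147634494-147634523, minus strand) are the first bases of exon 14.
Flt1 soluble form: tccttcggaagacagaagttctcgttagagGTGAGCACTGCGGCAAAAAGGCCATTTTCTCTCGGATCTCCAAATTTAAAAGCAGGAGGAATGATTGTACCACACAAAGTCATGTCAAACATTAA
Flt1 membrane form: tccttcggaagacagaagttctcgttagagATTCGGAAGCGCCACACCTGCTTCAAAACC

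In Vegfb and Tek the stretches shown separate the main coding forms. In Vegfb the capitals (101 nt, chr19:6985496-6985596, minus strand) are held by Vegfb186, a freely secreted form, and not by Vegfb167, which binds heparan sulfate. Not being a multiple of 3, the stretch also shifts the reading frame after it. In Tek the capitals (153 nt, chr4:94799127-94799279, plus strand) are exon 4, which the model Tek-202 leaves out while keeping the frame. A further model, Tek-201, holds exon 4 and lacks 3 coding bases (chr4:94851875-94851877, plus strand).
Vegfb stretch held by Vegfb186: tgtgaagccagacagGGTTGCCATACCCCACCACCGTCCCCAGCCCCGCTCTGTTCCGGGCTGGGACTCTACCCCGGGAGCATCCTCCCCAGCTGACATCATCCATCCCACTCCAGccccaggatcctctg
Tek exon 4: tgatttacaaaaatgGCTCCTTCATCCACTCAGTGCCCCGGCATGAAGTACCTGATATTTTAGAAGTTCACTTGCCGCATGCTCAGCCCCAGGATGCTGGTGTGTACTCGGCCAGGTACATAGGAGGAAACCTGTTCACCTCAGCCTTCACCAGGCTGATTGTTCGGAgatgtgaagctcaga

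**Figure D1:**
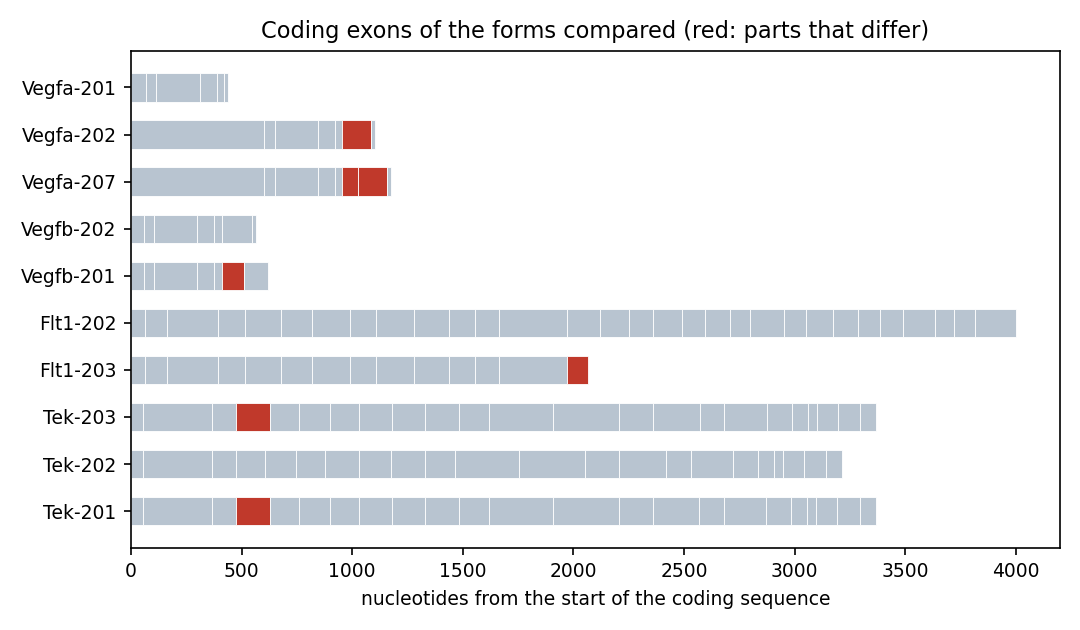
Coding exons of the models compared, as blocks along the coding sequence (x axis, nucleotides from its start; 1 row per model). Red marks the stretches that separate the forms: exons 6 and 7 in Vegfa-202 and Vegfa-207, the 101 nt of Vegfb-201, the tail of the soluble Flt1-203, and in Tek exon 4 and the 3 bases that Tek-201 lacks, which are too narrow to see at this scale. Flt1-203 ends at 688 codons against 1333 in Flt1-202.

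The tissue label fits its markers. All 8 podocyte marker genes reached 1 TPM in both pups, from Wt1 (76.7 ± 0.523 TPM, SD, n = 2) down to the slit diaphragm gene Nphs1 (3.41 ± 0.0919 TPM), as did all 6 proximal tubule and all 4 loop and collecting duct genes. Of 6 adrenal genes, 2 reached that level, and the list's summed level was 6.01 and 6.50 TPM in pups 1 and 2.

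Every Vegf and angiopoietin gene was expressed, from 4.42 to 60.9 TPM as the mean of both pups. In each pup all 10 were at 1 TPM or more, and 6 (Nrp1, Vegfb, Tek, Kdr, Angpt2 and Angpt1) were at 10 TPM or more. The median of the 10 means was 12.5 TPM, against 17.8 TPM for the 13214 protein-coding genes detected at 1 TPM or more in both pups. Expected counts ran from 410 to 12577 per gene and library, so none of the levels rests on few reads.

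Among the Vegf ligands, Vegfb led and Vegfa was lowest. Vegfb (ENSMUSG00000024962, chr19:6982473-6987651, minus strand), a ligand of Flt1 and Nrp1, had 43.5 TPM in pup 1 and 45.2 in pup 2, a mean of 44.3 ± 1.16 TPM from 1389 and 1799 counts. That placed it above 73.9% of detected protein-coding genes. Vegfc (ENSMUSG00000031520, chr8:54077606-54187096, plus strand), the main ligand of Flt4, stood at 7.76 and 7.87 TPM, with 410 and 512 counts. Vegfa (ENSMUSG00000023951, chr17:46016993-46032369, minus strand), the ligand of Kdr and Flt1, stood at 5.21 and 5.09 TPM, from 423 and 494 counts. Its mean of 5.15 ± 0.0849 TPM lay above 20.2% of detected protein-coding genes. The order Vegfb, Vegfc, Vegfa was the same in both pups.

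Among the receptors, the co-receptor Nrp1 was the most abundant and Flt4 the least. Nrp1 (ENSMUSG00000025810, chr8:128358604-128503363, plus strand), which also binds semaphorins and is found outside endothelium, stood at 62.4 and 59.3 TPM (60.9 ± 2.18), above 80.6% of detected protein-coding genes. Kdr (ENSMUSG00000062960, chr5:75932827-75978458, minus strand) had 18.01 TPM in pup 1 and 15.57 in pup 2, from 3104 and 3301 counts. Flt1 (ENSMUSG00000029648, chr5:147561604-147726011, minus strand) stood at 8.18 and 8.43 TPM, from 1469 and 1754 counts. Flt4 (ENSMUSG00000020357, chr11:49609263-49652739, plus strand) stood at 4.64 and 4.2 TPM, from 839 and 938 counts. The receptors kept the order Nrp1, Kdr, Flt1, Flt4 in both pups. The other neuropilin, Nrp2, which pairs with Flt4, was far below Nrp1 at 4.4 and 4.42 TPM.

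The angiopoietins lay close together, below their receptor. Tek (ENSMUSG00000006386, chr4:94739289-94874976, plus strand) stood at 22.8 and 21.4 TPM, from 3010 and 3463 counts. Angpt2 (ENSMUSG00000031465, chr8:18690263-18741562, minus strand) had 14.8 TPM in pup 1 and 12.5 in pup 2. Angpt1 (ENSMUSG00000022309, chr15:42424723-42676977, minus strand) stood at 12.04 and 10.74 TPM. In both pups the order was Tek, Angpt2, Angpt1. The coding model of Angpt2 alone stood at 12.24 and 11.05 TPM, close to Angpt1. The Angpt2 locus overlaps Mcph1 and the Angpt1 locus overlaps the antisense gene Gm17473, each on the other strand. Whether counting used the strand is not given in the sources used here, so reads from the overlaps may come from either gene. The orphan receptor of this pair, Tie1, which binds no ligand tightly but modulates Tek, stood above Tek at 40.7 and 36.4 TPM.

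**Figure D2:**
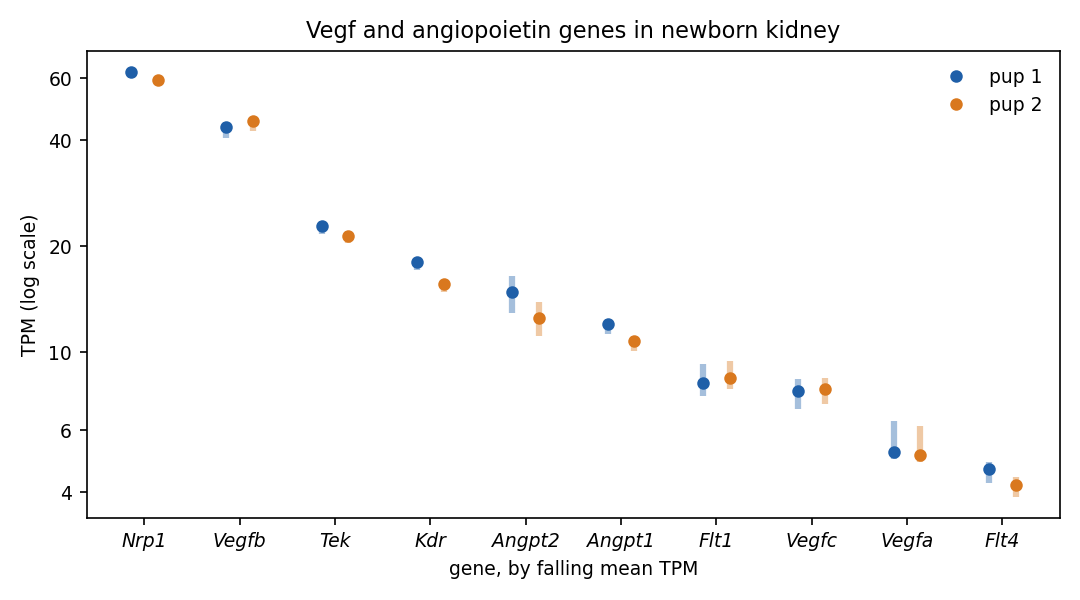
Deposited TPM of the 10 genes (y axis, log scale) in pup 1 (blue) and pup 2 (orange), ordered along the x axis by falling mean. Vertical bars are the deposited credibility intervals, which belong to the posterior mean and need not centre on the point; the level of these intervals is not given in the sources used here. Nrp1 (62.4 and 59.3 TPM) and Vegfb (43.5 and 45.2 TPM) stand clear above the other 8 genes.

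To ask whether levels of different genes differed by more than the pups do, the log2 ratio of TPM was taken within each pup. A ratio counted as beyond the spread where both pups had the same sign and the smaller ratio was above a limit. The limit was the 95th percentile of the absolute log2 differences in TPM between the pups over all gene features at such levels. Of 22 fixed pairs, 18 were beyond this limit and 4 within it. The share of other gene pairs beyond such a limit was not taken, so these counts describe the listed pairs alone. Down the order of levels, 3 of the 9 neighbouring pairs were beyond it. Nrp1 stood above Vegfb, at log2 0.52 and 0.39 in pups 1 and 2 (limit 0.30). Vegfb stood above Tek, at 0.93 and 1.08 (limit 0.35). Vegfc stood above Vegfa, at 0.57 and 0.63 (limit 0.57). That last pair passed by a narrow margin, and with the posterior mean TPM the mean log2 of Vegfa over Vegfc was -0.46 and no longer beyond the limit. The Vegfc model was 1881 nt long as deposited and 2449 nt in M21, and the Nrp1 model 5907 nt and 3597 nt. The limit does not cover such differences, which bear on every ratio with either gene, that of Nrp1 over Vegfb among them. The other 6 neighbours (Tek and Kdr, Kdr and Angpt2, Angpt2 and Angpt1, Angpt1 and Flt1, Flt1 and Vegfc, Vegfa and Flt4) did not differ beyond the spread. The middle of the order, from Tek down to Vegfc, is therefore not resolved between adjacent genes.

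Between ligands, Vegfa was 8.61-fold lower than Vegfb, with log2 ratios of -3.06 and -3.15 in pups 1 and 2. Vegfb was 5.67-fold higher than Vegfc, with log2 ratios of 2.49 and 2.52. Placental growth factor (Pgf), another ligand of Flt1, stood at 4.59 and 4.55 TPM and did not differ from Vegfa beyond the spread (log2 0.18 and 0.16, limit 0.61). Vegfd, the other ligand of Flt4, stood at 10.99 and 8.69 TPM. Its ratio to Vegfc was within the spread over both pups, because the log2 of Vegfc over Vegfd was -0.50 in pup 1 and -0.14 in pup 2 (limit 0.47). By mean TPM the ligands of Flt1 or Kdr thus ran from Vegfb at the top to Vegfa and Pgf at the bottom, with the ligands of Flt4 between them.

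Between receptors, Kdr was 2.02-fold higher than Flt1, with log2 ratios of 1.14 and 0.89 and a limit of 0.46. Kdr was 3.79-fold and Flt1 1.88-fold higher than Flt4, and Nrp1 was 3.63-fold higher than Kdr. Nrp1 exceeded Nrp2 by 13.8-fold, the widest of the fixed pairs. Across ligand and receptor, Vegfa was 3.25-fold lower than Kdr and 1.61-fold lower than Flt1, while Vegfc was 1.77-fold higher than Flt4. Each of these ratios was beyond the spread in both pups. They compare RNA levels in the whole tissue and do not give the ratio of proteins at any one cell. The Flt1 level in them sums all models of the gene, with the soluble form and models without a coding sequence. The membrane form of Flt1 alone stood at 5.28 and 4.93 TPM in pups 1 and 2, beside 5.21 and 5.09 TPM for Vegfa.

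In the angiopoietin group, Angpt1 and Angpt2 did not differ beyond the spread, with log2 ratios of Angpt1 over Angpt2 of -0.29 and -0.22 against a limit of 0.41. Angpt1 was 1.94-fold and Angpt2 1.62-fold lower than Tek, both beyond the spread. Tek in turn was 1.74-fold lower than Tie1, also beyond it. Tek over Kdr, the leading receptors of the 2 pathways, was within the spread at log2 0.34 and 0.46 against a limit of 0.38. With pup 2 alone that ratio passed its limit, and with pup 1 alone it did not.

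Set against the pan-endothelial adhesion gene Pecam1 (45.4 and 43.3 TPM), the 3 receptors compared were lower. Tek was 2.01-fold, Kdr 2.65-fold and Flt1 5.34-fold lower than Pecam1, each beyond the spread. Flt4 was 3.84-fold higher than Prox1, the transcription factor that marks lymphatic endothelium, which stood at 1.25 and 1.06 TPM. The log2 ratio of Flt4 over Prox1 was 1.89 and 1.99, against a limit of 1.18 that is wide because genes as low as Prox1 vary more between the pups.

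**Figure D3:**
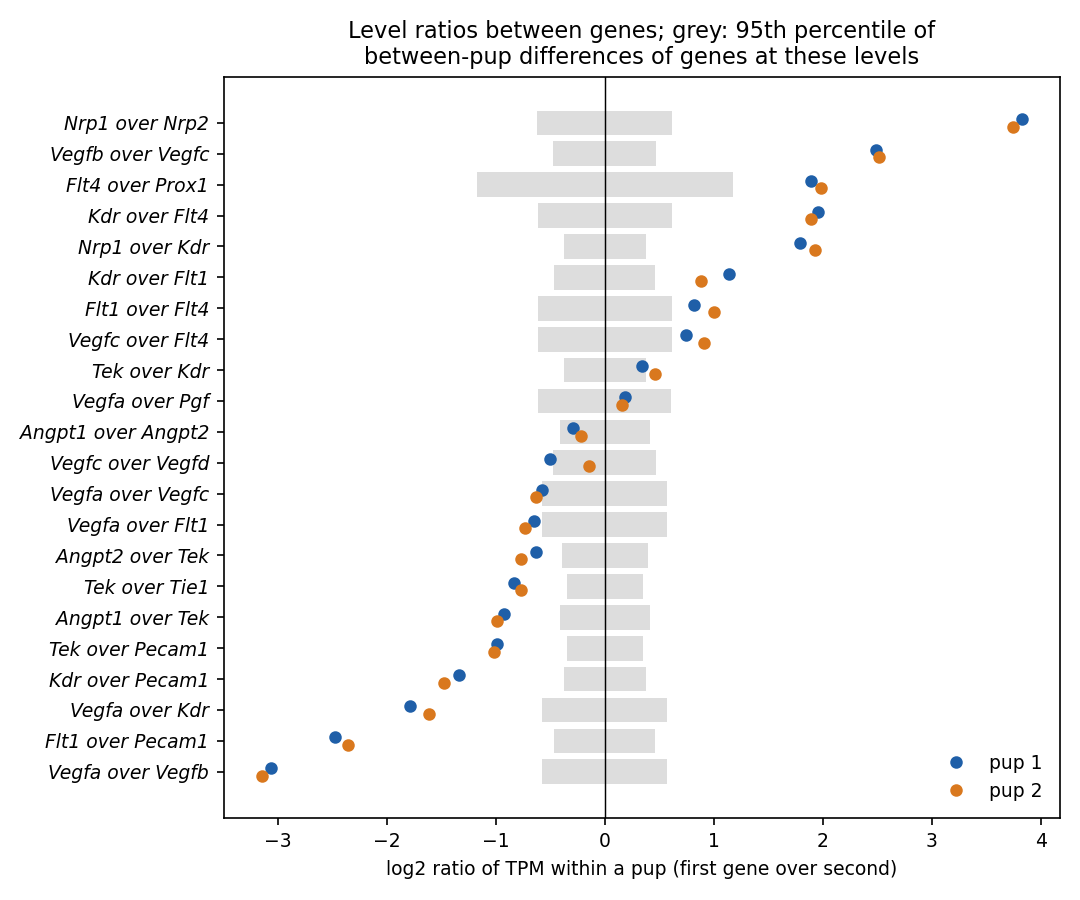
Log2 ratio of the TPM of 2 genes within each pup (x axis) for the 22 fixed pairs (rows), blue for pup 1 and orange for pup 2. Grey bands are the limit on either side of 0; the 4 pairs with at least 1 pup inside the band are Tek over Kdr, Vegfa over Pgf, Angpt1 over Angpt2 and Vegfc over Vegfd.

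The pups differed by less than 1.5-fold in these genes, as in most genes tested. The difference was taken as the log2 ratio of pup 2 over pup 1, from CPM (counts scaled to library size) adjusted by TMM (a correction for library composition) plus 0.1. Of the 10 genes, 0 were past 1.5-fold in either direction, against 2.57% of the 15150 genes tested (those reaching 50 expected counts in a pup), and 0 were past 2-fold, against 0.587%. For 10 genes, 0 is near those shares. The 10 genes had at least 410 counts in each pup, so the shares are not at like depth. The log2 ratios ran from -0.12 (Kdr) to 0.17 (Vegfb), with a median of 0.01 against 0.01 for all tested genes. The median absolute ratio of all tested genes was 0.10. By TPM, each of the 10 genes stayed under the 95th percentile of the absolute log2 ratios of all gene features at its own level.

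On scaled CPM, Kdr and Vegfb had the widest differences of the 10 genes. For Kdr the ratio was -0.12, with an exact binomial 95% interval of -0.19 to -0.05 that covers counting error only, and for Vegfb it was 0.17, with an interval of 0.07 to 0.27. The deposited credibility intervals of TPM did not overlap between the pups for 3 of the 10 genes, Kdr, Nrp1 and Angpt1, each higher in pup 1. That share is read against 27.1% of all tested genes with intervals that did not overlap. On scaled CPM 5 of the 10 genes were lower in pup 2 and 5 higher. By TPM, or by CPM on library totals, 7 were lower, since Vegfa and Nrp1 changed sign. By TPM the widest log2 ratios were those of Angpt2 (-0.24) and Kdr (-0.21), and that of Vegfb was 0.05. The Angpt2 TPM includes a short model without a coding sequence, at 2.52 and 1.49 TPM from 41.29 and 29.98 counts. Its coding model stood at 12.24 and 11.05 TPM, and on scaled CPM the log2 ratio of Angpt2 was -0.07. The median log2 ratio of TPM over all tested genes was -0.08.

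**Figure D4:**
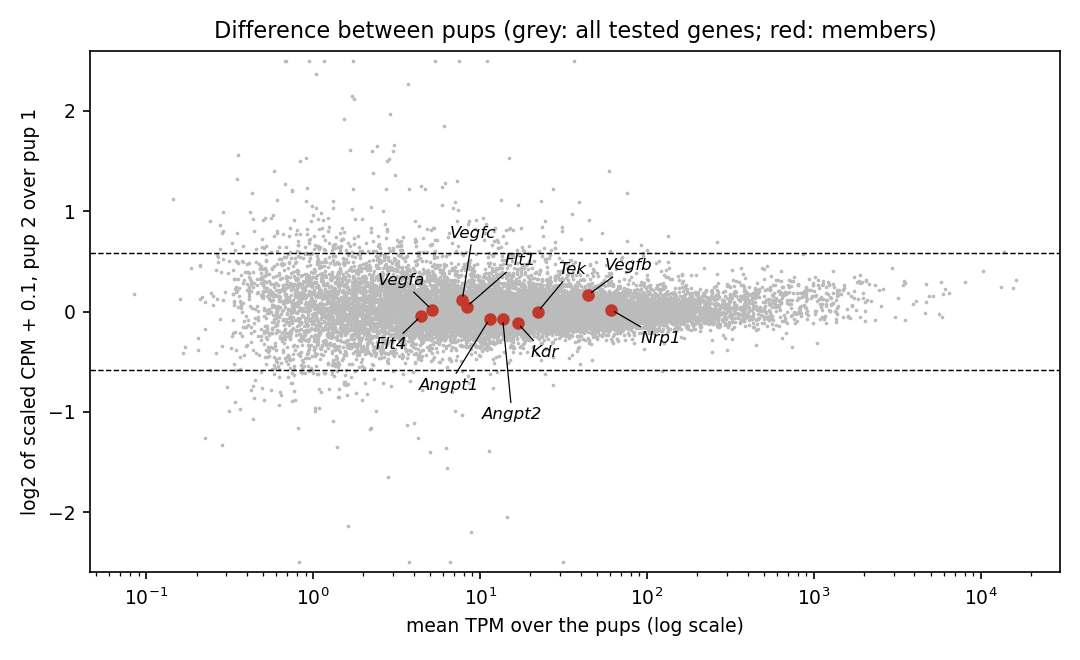
Log2 ratio of pup 2 over pup 1 (y axis, from TMM-scaled CPM + 0.1) against mean TPM (x axis, log scale) for the 15150 tested genes in grey and the 10 Vegf and angiopoietin genes in red. Dashed lines mark 1.5-fold, and genes outside the plotted range are drawn at its edge; the 10 genes lie between -0.12 and 0.17.

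The transcript tables divide each gene's TPM among its models. These shares are estimates in which reads shared by several models are assigned by a statistical fit. They are given as the percent of the gene's TPM. For Flt1, Vegfb and Tek, the share of 50-base windows found only in that model, among the gene's deposited models, is added. It measures how much sequence tells the model apart.

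Flt1 has a membrane and a soluble form with long stretches of their own. The membrane form Flt1-202 (30 exons, 3999 nt coding) held 64.5% in pup 1 and 58.5% in pup 2, and the soluble form Flt1-203 (13 exons, 2064 nt coding) held 23.6% and 22.2%, a mean of 22.9 ± 1.04%. As TPM the membrane form stood at 5.28 and 4.93 and the soluble form at 1.93 and 1.87. The membrane form exceeded the soluble form 2.74-fold in pup 1 and 2.64-fold in pup 2 (2.69 ± 0.0703), and their credibility intervals did not overlap in either pup. Of the 50-base windows, 66.4% of Flt1-202 and 65.1% of Flt1-203 occur in no other deposited model of the gene. The tail printed above is thus only the start of a long stretch particular to the soluble model, which is 6292 nt long. That stretch begins between exons 13 and 14 of the membrane form, in bases that splicing removes from it. Reads of unspliced Flt1 in total RNA could fall there too. How far they add to the soluble share was not tested. Models without a coding sequence held the remaining 11.9% and 19.3%, mostly Flt1-201, with 49.3 and 108 counts. By expected counts the models without a coding sequence held 3.43% and 6.24%.

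For Vegfb, the heparan sulfate binding form Vegfb167 (model Vegfb-202, 188 codons) led. It held 63.1% and 60.9% of TPM, and Vegfb186 (model Vegfb-201, 207 codons) held 33.5% and 37.2%. The ratio of Vegfb167 to Vegfb186 was 1.88 in pup 1 and 1.64 in pup 2. The credibility intervals of the forms did not overlap in either pup, at 23.4 to 30.5 against 11.3 to 17.4 TPM in pup 1 and 23.6 to 30.1 against 13.99 to 19.64 TPM in pup 2. A model with a retained intron held the other 3.46% and 1.86%. Only 4.15% of the windows of Vegfb-202 and 13.7% of those of Vegfb-201 are found in no other Vegfb model.

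For Vegfa, most TPM was assigned to models with neither exon 6 nor exon 7. These models, Vegfa-201 and Vegfa-211, together held 77.1% and 89.1% (83.1 ± 8.44%). Vegfa-202, with exon 7 alone, held 15.4% in pup 1 and was listed at 0 in pup 2. Its interval reached up to 1.37 TPM in pup 1 and 0.600 TPM in pup 2, and by posterior means its share was 12.3% and 3.99%. Models with both exons held 7.52% and 10.9%, all of it in Vegfa-206, a model with a retained intron and only 6.28 and 11 counts. By expected counts that is 1.48% and 2.23%. The coding models of Vegf188 type, Vegfa-204 and Vegfa-207, were listed at 0 in both pups.

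These Vegfa shares rest on few reads and on models of unequal reach. The gene had 11 models in the deposited tables, 7 of them listed at 0 in both pups. Vegfa-201, Vegfa-202 and Vegfa-211 are 2765, 3451 and 3324 nt long there, while the coding models with both exons are 654 and 1973 nt long. Vegfa-211 is 975 nt long in M21, from which its exons were read. No window shares were taken for Vegfa because of that difference. By posterior means the share of models with neither exon was 70.5% and 76.1%. How far the unequal lengths set these shares was not tested.

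For Tek, the model without exon 4, Tek-202 (1072 codons), held 33.4% in pup 1 and 27.2% in pup 2. The full-length model Tek-203 (1123 codons) held 58.4% and 61.7%, and Tek-201, which lacks 3 coding bases, held 7.24% and 10.4%. Models with exon 4 thus exceeded the one without it 1.96-fold and 2.65-fold. The sequence that separates them is short: 2.13% of the windows of Tek-202, 1.19% of those of Tek-201 and 0% of those of Tek-203 occur in no other Tek model. The counts assigned were 1007 and 942 for Tek-202 and 1802 and 2189 for Tek-203.

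The other genes were carried by 1 coding model each. Kdr-201 held 99.5% in both pups and Flt4-201 held 98.0% and 98.8%. Angpt2-201 held 82.9% and 88.1% of TPM, with the rest in Angpt2-202, a short model without a coding sequence. By expected counts Angpt2-202 held 3.18% and 2.10%, from 41.29 and 29.98 counts. TPM divides counts by length, and Angpt2-202 is 652 nt long against 3560 for Angpt2-201. Vegfc, Nrp1 and Angpt1 had a single model each in the deposited tables. Secreted forms of Nrp1 or splice forms of Angpt1 can therefore not be read from them.

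**Figure D5:**
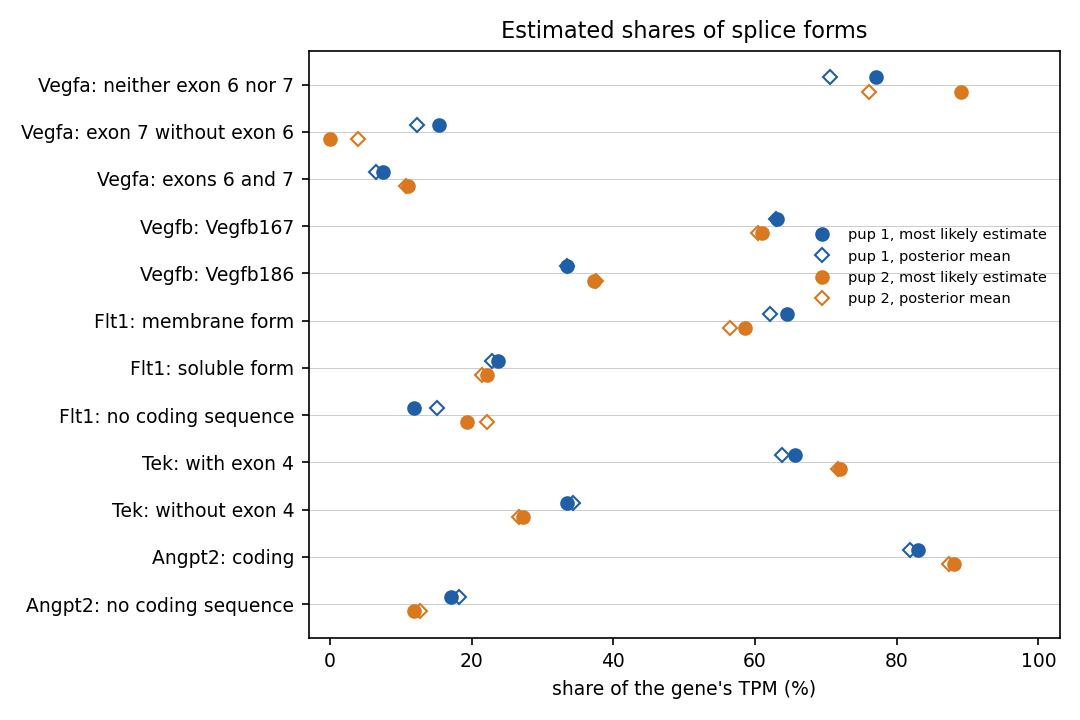
Share of the gene's TPM (x axis, %) for each group of models (rows) in pup 1 (blue) and pup 2 (orange). Filled circles are the most likely estimates and open diamonds the posterior means, and the 2 differ most for Vegfa models with neither exon (89.1% against 76.1% in pup 2).

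The rest of the pathway was largely expressed. Of 17 other ligands, receptors and co-receptors, 15 reached 1 TPM in both pups, with a list median of 14.3 and 12.9 TPM. The integrin subunit Itgav (133 ± 2.81 TPM), the semaphorin Sema3c (54.2 ± 4.55 TPM), Tie1 and the adhesion molecule Mcam (37.5 ± 0.969 TPM) led. Itgb3 and Angptl1 were under 1 TPM. Angpt4, a further ligand of Tek, stood at 1.85 and 2.16 TPM, and Ptprb, the phosphatase that restrains Tek, at 4.22 and 3.74 TPM. Of 14 genes for processing or storing the ligands, 11 were detected. The proteases Mmp14 (87.0 ± 6.53 TPM) and Mmp2 (82.7 ± 2.595 TPM) led, and Adamts3, the protease that activates Vegfc, stood at 0.790 and 0.840 TPM with its cofactor Ccbe1 at 1.12 and 1.08.

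Downstream of the receptors, 30 of 31 signal transducers were detected, at a list median of 25.7 and 23.8 TPM. Rac1 (274 ± 5.80 TPM) and Map2k2 (132 ± 0.636 TPM) led, and the adaptor Sh2d2a, which binds phosphorylated Kdr, was lowest at 0.04 and 0.08 TPM. Of the list's 30 genes with enough counts for a ratio, 1 was past 1.5-fold between the pups, against 2.57% of all tested genes. For 30 genes, 1 is near that share. It was the kinase Akt1, at 59.7 TPM in pup 1 and 91.1 in pup 2. Of 16 genes known to respond to the pathways in endothelium, 15 were detected, at medians of 6.86 and 7.28 TPM. The apelin receptor Aplnr (64.1 ± 3.47 TPM), the basement membrane gene Nid2 (49.9 ± 4.48 TPM) and the calcineurin regulator Rcan1 (30.7 ± 1.75 TPM) led, and Egr3 was lowest at 0.1 and 0.08 TPM. Enough counts were also reached by 17 of the other ligands and receptors, 13 of the processing genes and 15 of the response genes. None of these was past 1.5-fold, against the same 2.57%.

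Of 16 endothelial markers 15, all but the venule gene Ackr1, were detected, at medians of 43.5 and 46.1 TPM, above Tek, Kdr, Flt1 and Flt4 and below Nrp1. Of 14 transcription factors of endothelium 12 were detected, led by Sox18 (48.2 ± 2.14 TPM) and Ets2 (41.5 ± 1.499 TPM), with Tal1 and Etv2 under 1 TPM. All 6 lymphatic endothelial markers were detected, at medians of 6.84 and 7.34 TPM. Pdpn, which podocytes express as well, was highest at 40.3 ± 0.629 TPM, and Mmrn1 and Prox1 were lowest at 1.14 ± 0.00707 and 1.16 ± 0.134 TPM. Which cells carried each ligand or receptor was not measured in these whole-tissue libraries.

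Hypoxia is a known inducer of Vegfa. Of 16 genes of oxygen sensing or targets of hypoxia, 15 were detected, at medians of 29.3 and 28.2 TPM. The glycolytic enzymes Ldha (743 ± 47.2 TPM) and Pgk1 (213 ± 15.8 TPM) led, and the carbonic anhydrase Car9 was lowest at 0.400 and 1.00 TPM. All 12 splicing regulators tied to Vegfa or Flt1 were detected, at medians of 104 and 108 TPM. Srsf2 (541 ± 11.3 TPM) and Srsf5 (538 ± 17.98 TPM) led and the kinase Srpk2 was lowest (13.1 ± 0.615 TPM). Among genes with enough counts for a ratio, 15 in the first list and all 12 in the second, none was past 1.5-fold between pups. The share over all tested genes was 2.57%, and Car9 had too few counts.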

How the data were processed

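Newborn kidney libraries of 2 littermates, 1 group, were analysed from gene and transcript tables. Per the file headers, the deposited values are expected counts (estimated reads, not normalized), TPM and FPKM, each also as posterior means where the tables give them, with the percent of a gene's TPM per transcript and the bounds of a credibility interval, handled as a score in TPM. The authors quantified transcriptome alignments on mm10 with GENCODE M4, each library on its own, per the text deposited with the libraries. The sources used here name no aligner, software version or strand setting.

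Names, coordinates and sequences came from GENCODE M21 (GRCm38, the same assembly) by Ensembl identifier without version, which named 42462 of 43346 genes. Rounded expected counts were scaled by TMM in edgeR 4.0.16 (R 4.3.3), and size factors of DESeq2 1.42.0 were an alternative. The biological coefficient of variation was 7.34% over 17606 genes. For a gene with no count, the upper limit is 3 counts (0.0721 CPM in pup 1, 0.0614 in pup 2). Such limits, and the intervals, cover counting error only. Genes for ratios between pups had at least 50 counts in either pup. Windows of 50 bases were compared between M21 transcripts. For the limit of level ratios, gene features within 2-fold of either gene's level were used and the larger limit taken. With 1 group of 2 pups there is no test and no p-value. The labels give a separate pup to each library, but the spread is that of 1 litter.

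Members and the 19 gene lists (203 symbols, all found) were chosen with earlier results of these data known. The genes named were the 10 members, the 4 highest and the lowest of each list, the genes of the fixed pairs and list members past 1.5-fold. Not every gene so named is reported here. Angpt4, Ptprb, Ccbe1, Adamts3, Itgb3 and Tal1 were named in addition after their values were seen. Alternatives were the posterior means, FPKM, TPM over nuclear protein-coding genes, other scalings, pseudocounts and count minimums, and each pup left out. The call of 2-fold differences between pups was tested on simulated gene counts with known changes. All of these were larger than 2-fold, so changes near 2-fold were not tried. The 1.5-fold count, the pair limits and the model shares were not simulated. Scripts ran in Python 3.11.15 (SciPy 1.17.1, NumPy 2.4.6, pandas 2.3.3) and figures in Matplotlib 3.10.9.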

Additional observations from a re-analysis of the deposited data

How the results depend on the processing

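The count of 0 of 10 genes past 1.5-fold and past 2-fold between the pups was the same with library totals, DESeq2 size factors, TPM, posterior mean counts, a pseudocount of 1, no count minimum or a minimum of 10. Genes at 10 TPM or more numbered 6, and 4 with FPKM or 7 with TPM over nuclear protein-coding genes, which rescale all levels together. Of the 22 fixed pairs 18 were beyond the spread, 17 with posterior mean TPM (without Vegfa over Vegfc, -0.46) and 19 with either pup alone, where Tek over Kdr (0.46, pup 2) or Vegfc over Vegfd (-0.50, pup 1) was added. The share of Vegfa models with neither exon 6 nor 7, 83.1%, fell to 73.3% with posterior means and ranged from 77.1% to 89.1% with 1 pup left out. The cause was not tested. The soluble share of Flt1 was 24.1% by expected counts against 22.9% of TPM, a difference set by the lengths of the models, and ranged from 22.2% to 23.6% with 1 pup left out. By expected counts the models without a coding sequence held 4.83% of Flt1 and 2.64% of Angpt2, and Vegfa models with both exons 1.86%, against 15.6%, 14.5% and 9.23% of TPM. The ranges with 1 pup left out were 60.9% to 63.1% for Vegfb167 and 27.2% to 33.4% for Tek without exon 4. No paired analysis was possible because the labels give a single group. Vegfa models rest on 423 and 494 counts in all, which limits their split.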

Other observations

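Of the marker lists for other cells of the kidney, all 14 mural, mesangial and stromal genes were detected, at medians of 34.2 and 32.2 TPM, led by Col3a1, Acta2, Ren1 and Col1a1. Their lowest member, Foxd1, a transcription factor of the stromal progenitors, was the 1 gene of that list past 1.5-fold between the pups, at 3.75 TPM in pup 1 and 5.33 in pup 2. Of 10 leukocyte and platelet genes 8 were detected, and of 4 erythroid genes 3, led by the globin genes Hba-a2 (2018 ± 89.9 TPM) and Hbb-bs (1185 ± 27.6 TPM).

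In their most likely estimates, some models of Vegfa and Flt1 differed between the pups more than the gene as a whole. Their credibility intervals overlapped. The share of all models that differed as much was not taken. Vegfa-211 held 22.7% of Vegfa in pup 1 and 40.5% in pup 2, with 113 and 243 counts. Its intervals were 0.435 to 2.05 TPM in pup 1 and 0.973 to 2.38 TPM in pup 2. Vegfa-202 went from 79.5 counts to 0, with intervals of 0.103 to 1.37 TPM and 6.36e-06 to 0.600 TPM. Vegfa as a whole stood at 5.21 and 5.09 TPM. Flt1-201, which has no coding sequence, held 10.4% and 18.1% of Flt1, and its credibility intervals, 0.0723 to 1.61 and 0.796 to 2.31 TPM, overlapped.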
